A study of Mus musculus with 16 samples.

Results

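Regional and GABAergic transcription factors of the hypothalamus were followed as a set of 49 genes: homeodomain, LIM, forkhead, zinc-finger, nuclear-receptor, bHLH and T-box regulators, their TALE cofactors, and the Mab-21 family genes Mab21l1 and Mab21l2, which are not classical transcription factors. Members were taken by gene name from a count table of 45706 gene rows, and all 49 were found. RNA came from mouse hypothalamus processed by bacTRAP, in which the ribosomal protein L10a fused to GFP is made only in cells with Cre recombinase and is precipitated with anti-GFP antibodies. Each sample pooled the tissue of 4 animals, and a lysate aliquot taken before precipitation gave the input library beside the pulldown library of the same pool. The 16 libraries formed 4 groups of 4: input and pulldown of pools 1 to 4, labelled Control (Lepr-flox), and input and pulldown of pools 5 to 8, labelled Pnoc Lepr deletion, in which the leptin receptor gene Lepr is removed from cells with Pnoc-driven Cre.

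Animals of both genotypes were on a C57Bl/6N background, carried the ROSA-STOP-L10a-bactrap allele, ate chow and were killed fed in the morning at 12 weeks of age by one protocol text and at 10 to 12 weeks by another. The other labels of the control libraries call their Lepr wild type, and no label lists whether the controls also carry Cre, although the tagged ribosome depends on it. Pnoc encodes prepronociceptin, the precursor of the neuropeptide nociceptin. Recombination by Cre is permanent, so the tagged cells can include some that made Pnoc earlier in life, and they span several hypothalamic populations rather than a single cell type.

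The hypothalamus is built from small nuclei whose neurons are set apart during development by combinations of such factors, many of which stay on in the adult as part of cell identity. Nkx2-1 marks the ventral and tuberal territory, Otp and Sim1 the paraventricular lineage, Nr5a1 (SF-1) the ventromedial nucleus, and Foxb1 with the Barhl genes the mammillary region. Dlx1, Dlx2, Dlx5 and Dlx6 drive the GABAergic programme of forebrain neurons, and Isl1, Tbx3, Hmx2 and Gsx1 take part in forming neuron types of the arcuate nucleus.

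Library totals ran from 64435952 to 78623636 counts. Pnoc itself was higher in pulldown, at 2.71 ± 0.196 CPM in control input and 8.78 ± 1.25 in control pulldown (SD, n = 4), and Gad1, the GABA-synthesising enzyme, went from 179 ± 5.04 to an average of 362 CPM. Markers of non-neuronal cells were lower in pulldown: the summed level of 10 astrocyte genes was 2545 to 2891 CPM in control input and 141 to 159.8 in pulldown, and that of 7 oligodendrocyte precursor genes was 138 to 150.4 and 7.73 to 8.67. Summed pan-neuronal genes stood at 14096 to 14895 and 22346 to 24238 CPM. Summed vascular markers in pulldown ranged over 3.41 to 7.94 CPM among controls and 7.00 to 20.1 among deletion pools, with Cldn5 at 0 in all 4 control pulldown libraries. Slc32a1, the vesicular GABA transporter, stood at 19.9 ± 4.99 and 41.9 ± 9.83 CPM. Of 5 GABAergic marker genes, 4 were higher and 1 lower in pulldown in each genotype (control log2 fold changes from -0.73 to 1.68). Summed glutamatergic markers stood at 195.3 to 213.4 CPM in control input and 259.2 to 313.1 in pulldown. In deletion pools they stood at 162.5 to 205.5 and 190.2 to 248.5 CPM. Of the glutamatergic genes tested, 1 was higher and 1 lower in controls, and 1 and 2 in deletion pools. Counts over the whole Lepr gene did not fall with the deletion label. They stood at 1.62 ± 0.185 CPM in control and 2.62 ± 0.171 in deletion pulldown (log2 fold change 0.71, adjusted p = 0.0386, edgeR). Input levels were 4.29 ± 0.696 and 6.03 ± 1.49 CPM, so Lepr was lower in pulldown than in input in both genotypes. The input difference between genotypes did not pass. A gene total does not show which exons were removed.

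Within a library, members were ordered by TPM, a unit of transcript abundance that accounts for transcript length. Otp, a homeodomain factor of neuroendocrine and arcuate neurons, had the highest control pulldown level at 87.6 ± 7.00 TPM (SD, n = 4). It was followed by Foxb1 at 60.9 ± 20.7, Six3, a factor of the anterior forebrain, at 58.6 ± 3.83, and the zinc-finger gene Zic1 at 55.1 ± 11.9. Barhl1 (0.219 ± 0.0987), Lmx1b (0.232 ± 0.0322) and Mab21l1 (0.319 ± 0.349) stood at the bottom. In control pulldown 25 members averaged at least 10 TPM and 7 were under 1 TPM. Of the 48 pairs of neighbours in this order, 44 had overlapping ranges over the 4 libraries, so only the broad order is resolved. The coefficient of variation (CV) across the 4 control pulldown libraries, on the CPM scale, ran from 2.24% for Pbx3 to 109% for Mab21l1, with a median of 15%.

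The first question was which of these factors are concentrated on the ribosomes of Pnoc cells relative to the whole hypothalamus. In control pools, 24 of the 49 members were higher in pulldown than in input, 11 were lower and 14 did not pass (edgeR quasi-likelihood test, Benjamini-Hochberg adjusted over all 17570 genes tested, threshold 0.05). Of all genes tested, 30.1% were higher and 34.6% lower. All 49 members passed the count filter, and 44 of them averaged at least 1 CPM. The members' median log2 fold change was 0.35 against -0.02 for all genes. Among the passing members, 10 were over 2-fold higher and 6 over 2-fold lower. The 2-fold counts were not taken over all genes, so they cannot be called particular to the members. The 4 pulldown libraries lay entirely above the 4 input libraries for 23 members (28.4% of all genes) and entirely below for 9 (31.2%). These counts were 20 (26.6%) and 10 (29.8%) in the deletion pools. Where a gene is given as higher by a value, or at a value, in the paragraphs that follow, the value is a log2 fold change of pulldown over input, in controls first and then in deletion pools. Fewer cells of a type and less RNA per cell cannot be told apart in such libraries.

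**Figure D1:**
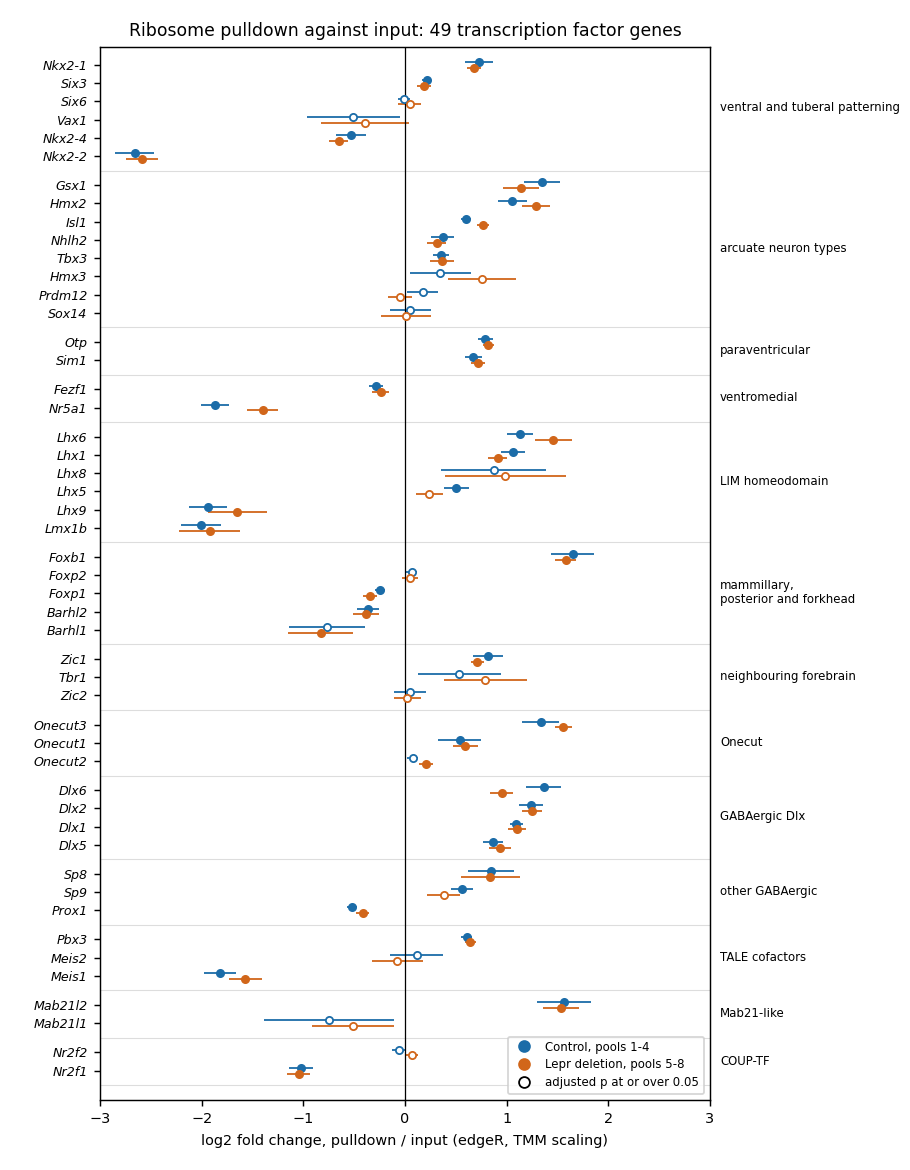
Log2 fold change of pulldown over input for each of the 49 members (x axis, points with standard error), grouped by role, in control pools 1 to 4 (blue) and Lepr-deletion pools 5 to 8 (orange); open symbols did not pass at adjusted p 0.05. Foxb1 and Mab21l2 stand farthest right and Nkx2-2 farthest left in the control pools, and the points of both genotypes lie close together for most genes.

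The Lepr-deletion pools, which share no library with the controls, gave 23 members higher, 12 lower and 14 not passing, where 28.8% of 17423 genes were higher and 32.8% lower. In this comparison 22 members were higher and 11 lower in both genotypes, 12 passed in neither, and no member passed in opposite directions. The same counts were not taken over all genes, so this agreement cannot be called particular to the members. Sp9 and Lhx5 passed as higher in the controls and not in the deletion pools (Lepr-deletion adjusted p = 0.0554 and 0.142), while Onecut2 passed as higher and Barhl1 as lower in the deletion pools and not in the controls (control adjusted p = 0.223 and 0.0902). Sp9 did pass in the deletion pools with DESeq2 (0.39, adjusted p = 0.0354), and Barhl1 passed in controls without input pool 4 (-0.96, adjusted p = 0.0464). The test of the difference in enrichment between genotypes passed for none of these. The authors' deposited table lists 24 members higher and 11 lower at adjusted p under 0.05 in each genotype.

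All 4 GABAergic Dlx homeobox genes were higher in pulldown in both genotypes and under each scaling tried, with control log2 fold changes of 1.37 for Dlx6, 1.24 for Dlx2, 1.09 for Dlx1 and 0.87 for Dlx5, and deletion values between 0.93 for Dlx5 and 1.25 for Dlx2. Dlx2 read 6.31, 9.38, 9.02 and 7.22 CPM in control input pools 1 to 4 and 19.1, 17.6, 20.1 and 19.6 in their pulldowns. In the deletion pools 5 to 8 it read 7.21, 8.83, 6.92 and 8.40 CPM in input and 17.8, 20.6, 16.9 and 19.9 in pulldown. Every pulldown library lay above every input library for Dlx2 in both genotypes, with control log2 fold change 1.24 (SE 0.11, adjusted p = 1.91e-06). Dlx6 read 3.45, 4.61, 3.07 and 4.56 CPM in control input and 12.8, 11.4, 8.51 and 8.23 in control pulldown, and 4.01, 3.77, 3.42 and 3.37 and 7.31, 8.25, 6.41 and 6.39 in the deletion pools. Input and pulldown did not overlap for Dlx6 either, although reads may be shared with the overlapping transcript Dlx6os1. That transcript held 15105 counts over all libraries against 7850 for Dlx6. Dlx1 overlaps Dlx1as, which was much less abundant (2152 against 50588 counts).

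Dlx1 and Dlx2 sit side by side on chromosome 2 in inverted orientation (Dlx1 chr2:71528113-71533981, Dlx2 chr2:71543408-71546754, GRCm38), and their promoters are shown because both genes of the pair were higher in pulldown. Each sequence, from RefSeq on GRCm38.p6, runs 5′ to 3′ along the gene's strand from 250 bases before to 50 after the start site, with the GC box GGGCGG, the core motif bound by Sp-family zinc-finger factors, in capitals on either strand (CCGCCC on the other). The Dlx1 window is chr2:71529195-71529494 on the plus strand and the Dlx2 window chr2:71546705-71547004 on the minus strand.
Dlx1: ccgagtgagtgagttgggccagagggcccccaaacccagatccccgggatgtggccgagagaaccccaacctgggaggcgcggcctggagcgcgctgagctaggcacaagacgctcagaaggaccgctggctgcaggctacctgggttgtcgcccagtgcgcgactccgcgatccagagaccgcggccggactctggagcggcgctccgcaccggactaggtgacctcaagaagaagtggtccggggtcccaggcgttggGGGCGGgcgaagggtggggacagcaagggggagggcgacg
Dlx2: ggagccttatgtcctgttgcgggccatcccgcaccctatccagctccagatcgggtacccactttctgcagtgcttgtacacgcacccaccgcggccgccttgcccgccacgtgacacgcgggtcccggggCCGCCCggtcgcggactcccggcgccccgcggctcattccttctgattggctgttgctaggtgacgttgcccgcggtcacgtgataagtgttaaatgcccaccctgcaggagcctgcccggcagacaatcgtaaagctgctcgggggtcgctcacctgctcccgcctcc
Each window held 1 GC box and no TAATTA, the core bound by many homeodomain proteins, and the motifs do not overlap one another. Of 49 members, 37 had a promoter in the table (47 promoters). GGGCGG stood in 25 of these 47 (53.2%) against 35.7% of all 32851 promoters, and TAATTA in 4 of 47 (8.51%) against 5.29%. These matches describe the letters only.

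**Figure D2:**
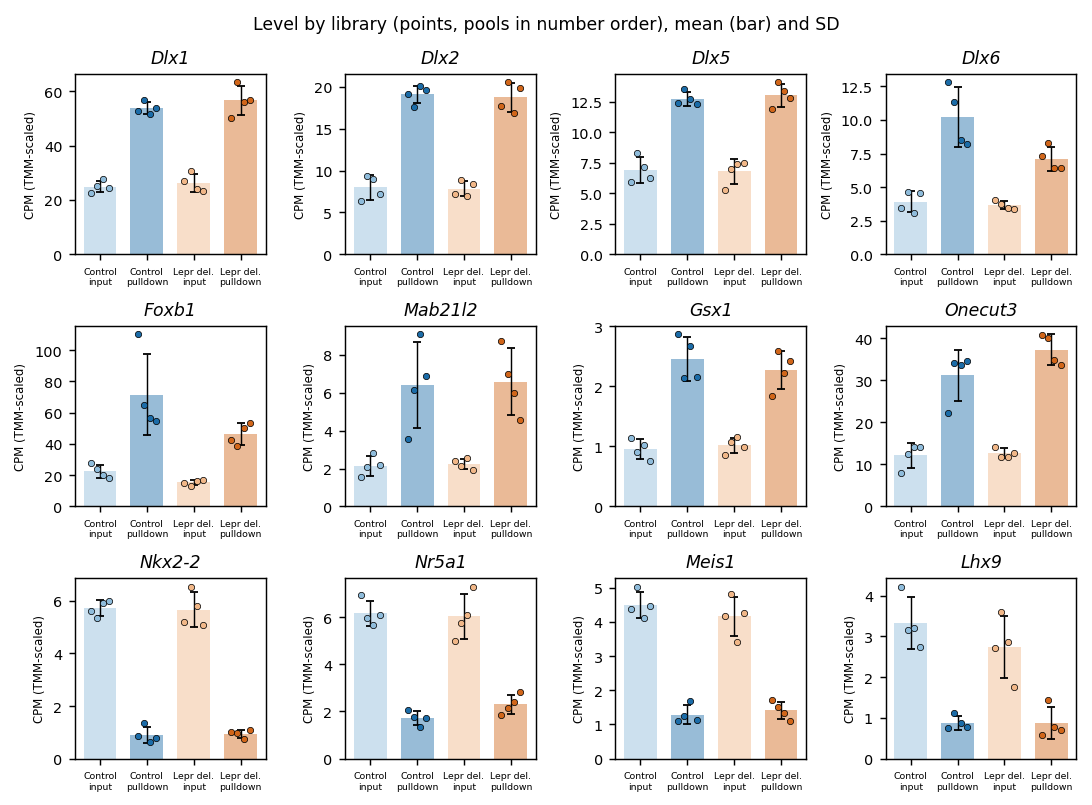
TMM-scaled CPM, counts scaled to library size (y axis, from 0) for 12 members in the 4 groups; points are the 4 pools in number order, bars their mean and error bars the SD. Dlx1, Dlx2, Dlx5, Dlx6, Foxb1, Mab21l2, Gsx1 and Onecut3 sit higher in both pulldown groups and Nkx2-2, Nr5a1, Meis1 and Lhx9 lower.

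Other factors of GABAergic lineages were mixed. Lhx6, a LIM-homeodomain factor of interneurons from the medial ganglionic eminence and of zona incerta neurons, read 7.84, 6.22, 7.94 and 5.42 CPM in control input and 17.8, 15.1, 14.3 and 13.6 in control pulldown. Its deletion libraries read 6.21, 6.47, 6.70 and 4.19 in input and 13.6, 22.9, 15.6 and 13.2 in pulldown, where pool 6 stood above the others. Pulldown exceeded input in every library of both genotypes, with log2 fold changes of 1.13 (SE 0.13, adjusted p = 9.42e-06) in controls and 1.46 (SE 0.18, adjusted p = 1.12e-05) in deletion pools. The zinc-finger interneuron factors Sp8 and Sp9 were higher in control pulldown, by 0.85 and 0.56. Sp8 was also higher in the deletion pools, by 0.84, a call lost without pulldown pool 5 (log2 fold change 0.71, adjusted p = 0.0645). Prox1, a homeobox gene of interneurons from the caudal ganglionic eminence that is also used in other tissues, went the other way: 80.9, 77.8, 77.3 and 81.4 CPM in control input and 60.2, 52.8, 54.2 and 56.8 in pulldown, with 76.8, 76.2, 76.7 and 77.7 and 53.7, 54.3, 58.9 and 65.0 in the deletion pools. The Prox1 groups did not overlap within either genotype and its log2 fold change was -0.52 (SE 0.05, adjusted p = 1.73e-06) in controls.

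Of 8 arcuate factors, 5 were higher in both genotypes and none lower, although Tbx3 and Nhlh2 turned negative when scaled to pan-neuronal genes. Gsx1, a homeobox gene needed for growth hormone-releasing hormone neurons, read 1.14, 0.899, 1.02 and 0.755 CPM in control input and 2.87, 2.15, 2.68 and 2.15 in pulldown. The deletion pools read 0.860, 1.08, 1.15 and 0.990 and 1.84, 2.58, 2.23 and 2.43. Gsx1 was a low-level gene, but no pulldown library fell to the input range, and the control log2 fold change was 1.35 (SE 0.18, adjusted p = 3.83e-05). Hmx2, from the same neuron lineage, was higher by 1.06 in controls and 1.29 in deletion pools, whereas its neighbour Hmx3 stood at 0.35 and 0.76 without passing (adjusted p = 0.332 and 0.0648). Without deletion input pool 8, Hmx3 passed there (1.09, adjusted p = 0.0135). Isl1, a LIM-homeodomain factor of proopiomelanocortin and other arcuate neurons, was higher by 0.60 and 0.77, Nhlh2, a bHLH factor linked to body weight, by 0.37 and 0.31, and Tbx3, which maintains arcuate peptidergic identity, by 0.35 and 0.36. The Tbx3 call in the deletion pools was lost without input pool 7 (0.31, adjusted p = 0.0530) or pulldown pool 8 (0.27, adjusted p = 0.0513). Prdm12, which acts in proopiomelanocortin neurons, and Sox14, of GABAergic neurons, had control log2 fold changes of 0.17 and 0.05 and deletion values of -0.05 and 0.01, and did not pass. Without control pulldown pool 1, Prdm12 was higher (0.31, adjusted p = 0.0469).

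The paraventricular pair was higher in both genotypes, although against pan-neuronal genes the control value of Sim1 (0.13) did not pass. Otp read 43.6, 56.6, 51.6 and 53.7 CPM in control input and 83.3, 89.1, 91.5 and 96.3 in pulldown, and 52.9, 59.8, 58.2 and 51.4 and 101, 101, 94.7 and 98.6 in the deletion pools. The groups were well apart, with log2 fold changes of 0.79 (SE 0.08, adjusted p = 3.17e-06) and 0.82 (SE 0.06, adjusted p = 3.64e-08). Sim1, a bHLH-PAS factor that also sets up paraventricular neurons, was higher by 0.67 and 0.71.

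Foxb1, the forkhead gene of the mammillary body, had the largest control fold change of the 49. It read 27.5, 23.9, 20.3 and 18.3 CPM in control input and 110.1, 65.0, 56.6 and 54.4 in pulldown, where pool 1 was far above pools 2 to 4. In the deletion pools it read 15.2, 13.0, 16.5 and 16.9 and 42.8, 38.8, 50.0 and 53.7. Input and pulldown did not overlap in either genotype, with log2 fold changes of 1.65 (SE 0.21, adjusted p = 2.96e-05) and 1.58 (SE 0.11, adjusted p = 2.87e-08). Of the other forkhead genes, Foxp1 was lower, at log2 fold changes of -0.25 in controls and -0.34 in deletion pools, and Foxp2 stood at 0.07 and 0.05 without passing. Barhl2, a homeobox gene of mammillary and subthalamic territory, was lower, at log2 fold changes of -0.37 and -0.38. Barhl1 was lower in the deletion pools, at -0.83, at 0.225 ± 0.0803 to 0.421 ± 0.0554 CPM over the 4 groups. That Barhl1 call was lost in 5 of the 8 fits that left out one library (adjusted p from 0.0546 to 0.105), and the deletion-pool calls of Barhl2 in 3 of 8 (adjusted p from 0.0538 to 0.0630).

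Among LIM-homeodomain genes, Lhx1 and Lhx5, relatives active in the suprachiasmatic and mammillary regions, were higher in control pulldown. Lhx1 read 30.6, 29.5, 24.1 and 25.8 CPM in control input and 72.5, 61.0, 49.9 and 49.8 in pulldown, with 24.9, 20.8, 21.2 and 27.8 and 42.7, 41.3, 46.0 and 49.3 in the deletion pools. All 8 pulldown libraries lay above all 8 inputs for Lhx1, by 1.07 (SE 0.12, adjusted p = 1.01e-05) in controls. Lhx5 was higher by 0.51 in controls and stood at 0.24 in the deletion pools. Lhx8, of basal forebrain cholinergic neurons, did not pass in either, at 0.87 and 0.99 with SEs of 0.51 and 0.60. With the pool as a block, which input and pulldown of one lysate allow, Lhx8 passed in the deletion pools (1.01, adjusted p = 0.0226), as did Tbr1 (0.77, adjusted p = 0.00553) and Sp9 (0.37, adjusted p = 0.0399), and Barhl1 did not (-0.84, adjusted p = 0.0615). Without deletion input pool 6 the Lhx8 value was 1.78 and passed (adjusted p = 0.0240).

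Of the Onecut homeodomain family, 2 of 3 genes were higher in controls and 3 of 3 in deletion pools, although against pan-neuronal genes Onecut2 was negative in both and Onecut1 in controls. Onecut3 read 7.92, 12.6, 14.1 and 14.2 CPM in control input and 22.2, 34.1, 33.7 and 34.7 in control pulldown, and 14.2, 11.8, 11.7 and 12.7 and 40.8, 40.1, 34.8 and 33.6 in the deletion pools. Pool 1 was the lowest of the controls in both fractions, and even its pulldown lay above every control input. The Onecut3 log2 fold changes were 1.33 (SE 0.19, adjusted p = 5.72e-05) in controls and 1.56 (SE 0.08, adjusted p = 3.17e-09) in deletion pools. Onecut1 was higher by 0.54 in controls, a call lost in 5 of the 8 fits that left out one library (log2 fold change from 0.37 to 0.51, adjusted p from 0.0938 to 0.138), and by 0.60 in deletion pools. Onecut2, the highest of the family per transcript length at 20.4 ± 1.50 TPM in control pulldown, had log2 fold changes of 0.08 and 0.21, of which the latter passed, but not when genes were kept at a mean of at least 1 CPM (0.15, adjusted p = 0.0607). Mab21l2 read 1.54, 2.06, 2.80 and 2.16 CPM in control input and 3.56, 6.15, 9.09 and 6.91 in pulldown, and 2.38, 2.16, 2.56 and 1.95 and 8.75, 7.02, 6.01 and 4.57 in the deletion pools. Its groups did not overlap within either genotype, with log2 fold changes of 1.57 (SE 0.26, adjusted p = 0.000255) and 1.54 (SE 0.18, adjusted p = 6.64e-06). Mab21l2 lies inside the far more abundant Lrba (46070 against 5588 counts), and reads of the pair may be shared. Mab21l1, which lies inside Nbea, did not pass at -0.75 and -0.51. Without control pulldown pool 3 it was lower in controls (-1.85, adjusted p = 0.00915).

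Zic1, a zinc-finger factor of septal, preoptic and thalamic precursors, read 28.2, 41.3, 32.5 and 36.9 CPM in control input and 45.4, 72.6, 59.7 and 70.4 in pulldown. Its deletion libraries read 46.8, 45.4, 45.1 and 42.4 and 70.3, 84.1, 69.2 and 72.8. Zic1 was higher in pulldown in both genotypes without overlap (0.82 and 0.71), although reads may be shared with the overlapping gene Zic4. Its relative Zic2 read 3.16, 3.89, 2.59 and 3.59 CPM in control input and 2.74, 3.98, 3.46 and 3.67 in pulldown, and 3.92, 4.08, 5.32 and 4.56 and 4.84, 5.12, 4.49 and 3.84 in the deletion pools. Input and pulldown of Zic2 overlapped within each genotype, at log2 fold changes of 0.05 and 0.02. Tbr1, a T-box factor of cortical glutamatergic neurons, did not pass in either genotype at 0.53 and 0.79, with a CV of 62.1% over the control pulldowns. Without deletion pulldown pool 8, Tbr1 passed there (1.07, adjusted p = 0.0131).

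The largest falls were of Nkx2-2 and Lmx1b. Nkx2-2, a homeobox gene of the ventral neural tube that oligodendrocyte precursors also express, read 5.61, 5.36, 5.92 and 6.01 CPM in control input and 0.860, 1.35, 0.644 and 0.802 in pulldown, and 5.22, 6.55, 5.79 and 5.10 and 0.993, 0.973, 0.731 and 1.09 in the deletion pools. No pulldown library came near the inputs, and the log2 fold changes were -2.66 (SE 0.19, adjusted p = 2.85e-07) and -2.59 (SE 0.15, adjusted p = 8.77e-09). The 7 oligodendrocyte precursor genes whose summed levels are given above were all lower too, with a median log2 fold change of -4.57 in controls, and their part in the Nkx2-2 value was not tested. Lmx1b, a LIM-homeodomain factor of midbrain dopaminergic and posterior hypothalamic neurons, read 2.09, 1.70, 1.92 and 1.44 CPM in control input and 0.367, 0.470, 0.472 and 0.483 in pulldown, with 2.05, 1.02, 1.85 and 2.00 and 0.603, 0.249, 0.534 and 0.448 in the deletion pools. Lmx1b was a weak transcript throughout, yet the groups did not overlap, with log2 fold changes of -2.01 (SE 0.20, adjusted p = 3.59e-06) and -1.92 (SE 0.30, adjusted p = 9.19e-05). Antisense or overlapping transcripts accompany both genes: C130021I20Rik had 1220 counts against 1133 for Lmx1b, and Nkx2-2os 323 against 3321 for Nkx2-2.

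Both lie on the minus strand of chromosome 2 (Nkx2-2 chr2:147176485-147195434, Lmx1b chr2:33560965-33641208), and their promoter windows, chr2:147186353-147186652 and chr2:33641049-33641348, are shown for contrast with the Dlx pair in the same format.
Nkx2-2: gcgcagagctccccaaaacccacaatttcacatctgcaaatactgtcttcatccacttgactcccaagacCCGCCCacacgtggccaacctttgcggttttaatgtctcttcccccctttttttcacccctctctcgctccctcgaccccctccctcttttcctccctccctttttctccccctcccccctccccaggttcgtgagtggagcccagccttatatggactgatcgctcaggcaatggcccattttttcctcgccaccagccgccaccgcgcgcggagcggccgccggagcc
Lmx1b: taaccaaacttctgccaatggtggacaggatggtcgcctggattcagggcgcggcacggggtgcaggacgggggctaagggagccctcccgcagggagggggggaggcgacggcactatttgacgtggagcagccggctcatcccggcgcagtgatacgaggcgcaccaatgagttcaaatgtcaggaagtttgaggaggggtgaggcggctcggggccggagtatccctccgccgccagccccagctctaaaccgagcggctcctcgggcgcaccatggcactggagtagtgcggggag
The Nkx2-2 window held 1 GC box and the Lmx1b window none, and neither held TAATTA.

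Lhx9, a LIM-homeodomain gene of orexin and thalamic neurons, read 4.22, 3.15, 3.20 and 2.73 CPM in control input and 0.746, 1.12, 0.863 and 0.769 in pulldown. In the deletion pools it read 2.71, 3.61, 2.86 and 1.76 and 0.579, 1.45, 0.766 and 0.699. The groups were separate in both genotypes, at -1.94 (SE 0.19, adjusted p = 3.09e-06) and -1.65 (SE 0.29, adjusted p = 0.000229). Nr5a1, the nuclear receptor that defines ventromedial neurons, read 6.92, 5.97, 5.67 and 6.09 CPM in control input and 2.05, 1.76, 1.32 and 1.70 in pulldown, and 4.98, 5.74, 6.09 and 7.30 and 1.87, 2.13, 2.38 and 2.83 in the deletion pools. Every Nr5a1 pulldown value lay below every input value, with log2 fold changes of -1.87 (SE 0.14, adjusted p = 3.02e-07) and -1.40 (SE 0.15, adjusted p = 3.56e-06). Fezf1, a zinc-finger gene that acts with Nr5a1 in the same nucleus, fell far less, with log2 fold changes of -0.28 and -0.24. The smaller Fezf1 call in the deletion pools was lost without input pool 8 (-0.18, adjusted p = 0.0707) or pulldown pool 8 (-0.17, adjusted p = 0.0603).

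The TALE homeodomain cofactors split. Meis1 read 4.38, 5.04, 4.12 and 4.48 CPM in control input and 1.09, 1.25, 1.69 and 1.12 in pulldown, and 4.17, 4.81, 3.42 and 4.28 and 1.70, 1.50, 1.35 and 1.09 in the deletion pools. It was lower without overlap, at log2 fold changes of -1.82 (SE 0.16, adjusted p = 1.22e-06) and -1.57 (SE 0.16, adjusted p = 2.3e-06). Pbx3 was higher by 0.61 and 0.64, and Meis2 did not pass at 0.12 and -0.08. Of the COUP-TF nuclear receptors, Nr2f1 read 11.1, 9.04, 8.13 and 10.4 CPM in control input and 5.22, 5.47, 4.34 and 4.25 in pulldown, and 9.28, 10.3, 8.91 and 9.71 and 5.04, 5.23, 4.54 and 3.77 in the deletion pools. Every Nr2f1 pulldown value lay below every input value, with log2 fold changes of -1.02 (SE 0.12, adjusted p = 1.32e-05) and -1.05 (SE 0.11, adjusted p = 2.12e-06), but on log2(TPM + 1) the call was lost in both (-0.01 and -0.10, adjusted p = 0.923 and 0.364). The overlapping A830082K12Rik held more counts than the gene itself (14098 against 7815). Nr2f2 did not pass at -0.06 and 0.07.

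Of 6 ventral and tuberal patterning genes, 2 were higher and 2 lower in both genotypes, although Six3 turned negative against pan-neuronal genes and Nkx2-4 reached 0.01 in controls with library totals. Nkx2-1, required for the ventral hypothalamus, was higher by 0.73 and 0.68, and Six3 by 0.21 and 0.19, the latter lost in 4 of 8 fits that left out one library (adjusted p from 0.0586 to 0.0897). Six3 held 62794 counts and its overlapping partner Six3os1 25631, so reads of the pair may be shared. Nkx2-4, a close relative of Nkx2-1, read 11.1, 8.82, 10.7 and 8.34 CPM in control input and 8.40, 7.16, 6.83 and 4.99 in pulldown, and 9.94, 10.6, 11.6 and 12.3 and 6.92, 6.40, 7.39 and 7.71 in the deletion pools. Its control input and pulldown ranges overlapped at a single value, and it was lower in both genotypes, with log2 fold changes of -0.53 (SE 0.15, adjusted p = 0.00753) and -0.65 (SE 0.09, adjusted p = 3.73e-05). Six6, of the hypothalamus and eye, stood at -0.01 and 0.05, and Vax1, of the ventral optic region, at -0.51 and -0.39 with at most 0.311 CPM in any library.

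A wider list of 89 other neuronal transcription factors gave 22 higher and 48 lower among the 83 tested in controls, with a median log2 fold change of -0.45. Among its higher genes were Npas1 (0.93) and Pou2f2 (0.87), and its lowest values were for Nfia (-3.78), Zeb2 (-3.50), Irx3 (-2.98) and Nr2e1 (-2.96), of which Nfia, Zeb2 and Nr2e1 are also expressed in glia. In the deletion pools 24 were higher and 45 lower of 82 tested.

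How many members counted as higher depended on the reference. On log2(TPM + 1), where the median of all genes was 0.75 in controls, 40 members were higher and 5 lower, against 72.3% and 13.5% of all genes. With library totals the median of all genes was 0.53 in controls rather than -0.02, and 37 members were higher and 6 lower, against 60.9% and 19.0% of all genes. Scaled to 20 pan-neuronal genes the median was -0.56, with 12 members higher and 20 lower in controls (3.15% and 71.9% of all genes) and 15 and 23 in deletion pools (1.74% and 75.7%). The 12 members higher in controls against the neuronal reference were Foxb1 (1.11), Mab21l2 (1.02), Dlx6 (0.82), Gsx1 (0.80), Onecut3 (0.79), Dlx2 (0.70), Lhx6 (0.59), Dlx1 (0.55), Lhx1 (0.52), Hmx2 (0.51), Dlx5 (0.33) and Otp (0.25). Of the other 12 that had been higher in controls, Nkx2-1, Isl1, Sim1, Zic1, Sp8, Sp9 and Pbx3 kept positive values that did not pass (0.02 to 0.31), and Six3, Tbx3, Nhlh2, Lhx5 and Onecut1 turned negative (-0.33 to -0.01). With library totals the control values of Nkx2-4, Fezf1, Foxp1, Barhl2 and Prox1 turned positive (0.01 to 0.30). Nkx2-2, Lmx1b, Lhx9, Nr5a1 and Meis1 were lower under each of these scalings and on log2(TPM + 1), in both genotypes.

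**Figure D3:**
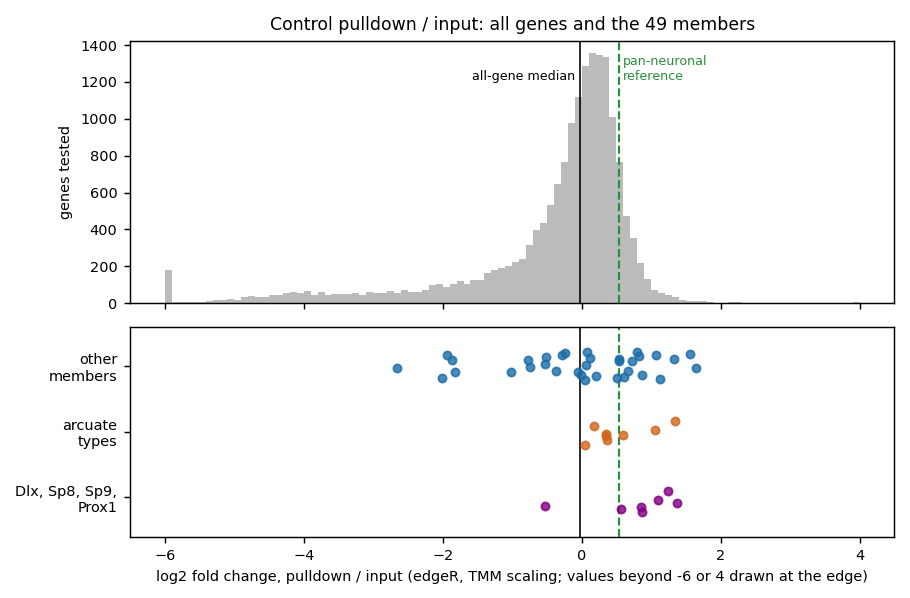
Upper panel, number of genes tested (y axis) by log2 fold change of control pulldown over input; lower panel, the 49 members on the same axis. The solid line marks the median of all genes (-0.02) and the dashed line the position of the pan-neuronal reference, which the 4 Dlx genes exceed and most other members do not.

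The second question was whether loss of Lepr in Pnoc cells altered these factors. In pulldown, none of the 49 members passed in edgeR, where 108 of 16859 genes did (0.641%). None passed by limma on log2(TPM + 1) either, where 30 of 16859 genes did. In edgeR, 8 of the 49 members had an unadjusted p under 0.05, as did 3340 of all 16859 genes, so the share among members was not larger. The smallest p belonged to Dlx6, with the values given above: its 4 deletion libraries read 6.39 to 8.25 CPM and its control libraries 8.23 to 12.8, so the ranges overlapped at a single value (log2 fold change -0.51, adjusted p = 0.0964, edgeR). Lhx1 stood at -0.37 (adjusted p = 0.11) and Foxb1 at -0.61 (adjusted p = 0.127). These last 2 were the only members whose pulldown ranges did not overlap between genotypes, both lower in the deletion pools, where 4.92% of all genes were. The remaining members with p under 0.05 were Lhx5 (-0.29), Zic2 (0.41), Nr5a1 (0.44), Onecut2 (0.17) and Otp (0.15). DESeq2 called Dlx6 (-0.51, adjusted p = 0.0106) and Lhx1 (-0.36, adjusted p = 0.0221) lower and Zic2 (0.41, adjusted p = 0.0425) higher, against 2.72% of all genes lower and 3.6% higher. The authors' deposited table lists the same 3 genes, with adjusted p-values of 0.0108, 0.0198 and 0.0458. Among GABAergic and glutamatergic markers no gene passed between these pulldown groups (0 of 5 GABAergic, log2 fold changes from -0.30 to 0.23, and 0 of 2 glutamatergic genes tested). Of 16 hypothalamic peptide genes, 1 passed as lower and 15 did not pass (log2 fold changes from -0.81 to 0.42, median -0.21). The summed level of 3 glutamatergic genes was 259.2 to 313.1 CPM in controls and 190.2 to 248.5 in deletion pools, and that of 5 GABAergic genes 2648 to 3294 and 3304 to 3559, and the part of these classes in the member values was not tested. Without deletion pool 5, Lhx5 passed (-0.42, adjusted p = 0.0282).

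**Figure D4:**
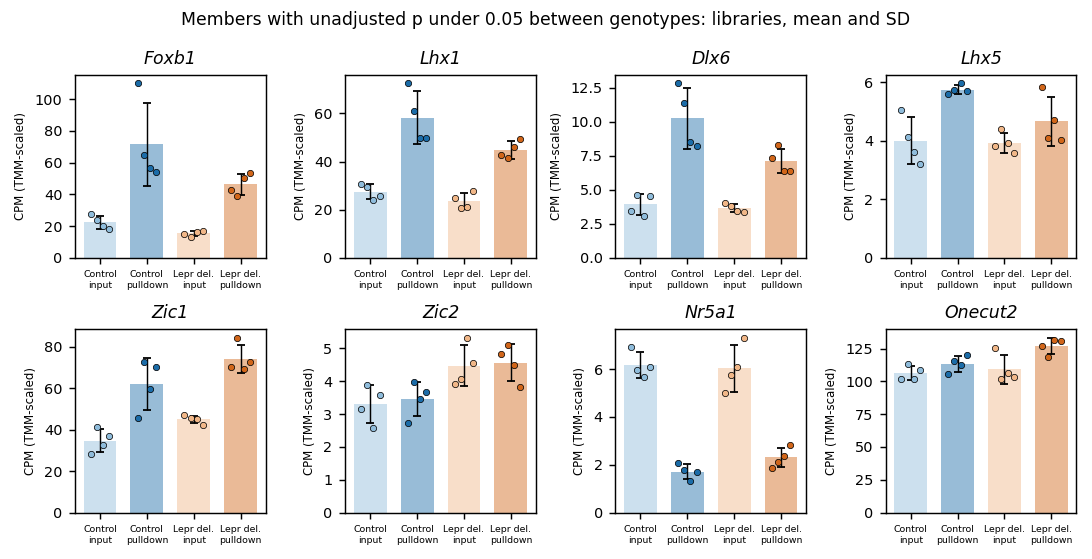
TMM-scaled CPM, counts scaled to library size (y axis, from 0), by group. Drawn are 8 of the members with an unadjusted p under 0.05 between genotypes in pulldown or input (edgeR). Otp, Foxp1 and Nr2f2 also had such a p and are not drawn. Points are the 4 pools in number order, bars the mean and error bars the SD. Foxb1 is lower and Zic1 and Zic2 are higher on average in both fractions of the deletion pools, with pool 1 the highest control for Foxb1 and the lowest for Zic1 in pulldown.

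In input, none of the 49 passed in edgeR, against 41 of 17735 genes (0.231%). None passed by limma on log2(TPM + 1) either, against 22 of 17735 genes. In edgeR, 6 of the 49 had an unadjusted p under 0.05, as did 2490 of all 17735 genes, so the share among members was not larger. Foxb1 was nearest, at 22.5 ± 4.07 CPM in control input and 15.4 ± 1.76 in deletion input (SD, n = 4), without overlap (-0.55, adjusted p = 0.0818). Zic1 was at 34.7 ± 5.63 and 44.9 ± 1.86, also without overlap (0.37, adjusted p = 0.13). Zic2 stood at 0.44 (adjusted p = 0.234). The ranges of 4 members were separate, 2 higher and 2 lower, where 4.05% and 2.82% of all genes were. DESeq2 called Foxb1 (-0.55, adjusted p = 0.00123) lower and Zic1 (0.37, adjusted p = 0.0100) higher, with 1.04% and 1.11% of all genes called lower and higher, and the authors' deposited table lists both (adjusted p = 0.000995 and 0.00833). Without the count filter edgeR called the same genes, Foxb1 lower (adjusted p = 0.00288) and Zic1 higher (adjusted p = 0.00877), against 0.423% and 0.482% of all genes. With the filter, Foxb1 passed without control input pool 1 (-0.44, adjusted p = 0.0462) and without pool 4 (-0.64, adjusted p = 0.0391). With pools 1 and 5 both left out, an alternative added after seeing the data, Foxb1 (-0.43, adjusted p = 0.0205) and Meis2 passed in input as lower and Zic1 as higher (0.27, adjusted p = 0.0308), against 6.67% and 4.3% of all genes. In the same alternative Dlx6, Lhx5 and Meis2 passed in pulldown as lower and Nr5a1 as higher, against 10.5% and 9.35% of all genes.

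The difference in enrichment between genotypes was tested in one fit over the 16 libraries. No member passed, as against 2 of 18530 genes (0.0108%). Only Nr5a1 had an unadjusted p under 0.05 (0.46, adjusted p = 0.542, edgeR), where 1660 of all 18530 genes did. DESeq2 passed no member in this comparison. The median over the 49 was 0.00133, with the lowest value at -0.42 for Dlx6 (SE 0.22).

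Pools differed among themselves in the same genes. Control pulldown pool 1 held the highest of the 4 values for 16 members and the lowest for 21. On the log2 scale with 0.1 CPM added, its deviation from the mean of the 4 was 0.68 for Foxb1, 0.51 for Sox14, 0.42 for Nkx2-1, 0.35 for Dlx6 and 0.33 for Lhx1, and -0.94 for Tbr1, -0.76 for both Mab21l2 and Meis2, -0.59 for Onecut1, -0.46 for Onecut3 and -0.43 for Zic1. Pool 1 thus stood high in the 3 members with the smallest p between genotypes in pulldown, and without it their values were -0.34 for Foxb1, -0.40 for Dlx6 and -0.25 for Lhx1 (adjusted p = 0.0775, 0.0845 and 0.0938). In the deletion pools, pool 6 stood high for Lhx8 (1.34), Lhx9 (0.75) and Lhx6 (0.53), and pool 8 low for Tbr1 (-1.20) and Meis2 (-0.74).

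**Figure D5:**
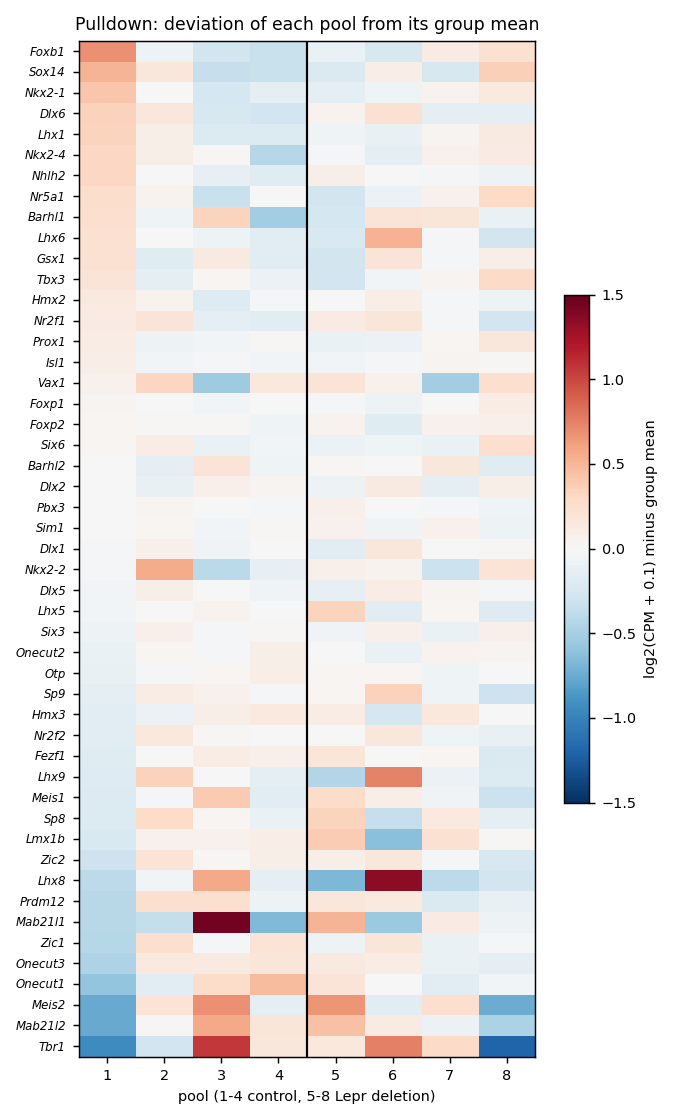
Deviation of each pulldown library (columns, pools 1 to 8) from the mean of its own group for the 49 members (rows), in log2 of CPM plus 0.1; colour gives the sign and size. Foxb1 is high and Tbr1, Meis2 and Mab21l2 are low in pool 1, and Lhx8 is high in pool 6.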

How the data were processed

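Input and pulldown RNA of 8 pools was sequenced as 16 libraries, and nothing in the labels says that a pool was drawn from other than its own 4 animals. Per the submitters' processing notes the authors used Salmon 1.10.1, DESeq2 1.38.3 and the GRCm38 build; the strand setting, annotation release and trimming are not given in the sources used here. The authors deposited estimated counts per gene, TPM (abundance scaled for transcript length), estimated counts rescaled from TPM, and a table of log2 fold changes and adjusted p-values of their comparisons. Estimated counts were rounded. Rounding and transcript-length changes can move low genes.

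Counts were fitted with edgeR 4.0.16 (R 4.3.3; TMM scaling; genes kept at a minimum count of 10 and total of 15), with the quasi-likelihood test across all genes kept and Benjamini-Hochberg adjustment at 0.05, two-sided. Only the groups compared entered each fit, and all 4 entered the test of the difference in enrichment. Levels are TMM-scaled counts scaled to library size (CPM), and 3 counts equal 0.0469 to 0.0562 CPM in input and 0.0321 to 0.0396 in pulldown. The p-values measure the spread between these pools. Alternatives were DESeq2 1.42.0, limma 3.58.1 on log2(TPM + 1) and log2(TPM + 0.1), other scalings and filters, each library left out, and the pool as a block. Input and pulldown of a pool share a lysate by protocol. Their deviations from the group means correlated at -1.9e-05 to 0.179 over 8 pools, 1 of them over 0.1. In 6 of the 8 pools the input correlated best with its own pulldown among the pulldowns of its genotype.

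On simulated counts for the control enrichment (17386 genes), 54 of 68 genes changed by 0.5 on the log2 scale were recovered, 71 of 74 at 1 and 58 of 58 at 2. For the pulldown genotype comparison (16667 genes) the figures were 47 of 61, 68 of 69 and 70 of 70. Only a small part of the genes was changed, and all of those averaged over 1 CPM. Each gene's spread between libraries was set to that typical of its level rather than its own. These figures therefore do not give the recovery of members under 1 CPM or of members with a wider spread.

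The members, the lists and the rules were chosen with earlier results of these data known. Values in every library are given for the 7 passing members with the largest log2 fold change in each direction in controls, the most abundant member by TPM of each other role, and the 3 with the smallest p between genotypes in each fraction. Promoter sequences came from RefSeq (GRCm38.p6); no table entry was matched for Nr5a1, Onecut2, Zic2, Dlx6, Mab21l1, Lhx5, Dlx5, Pbx3, Onecut3, Foxb1, Tbx3 and Foxp2. Some genes of the wider list of neuronal transcription factors are not reported here.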

Additional observations from a re-analysis of the deposited data

Results flagged for a closer look

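In 7 of 196 groups of 4 libraries, 1 pool stood far from the other 3 by Dixon's criterion for a single outlying value, where chance marks about 1 in 20 groups. Six6, an eye and hypothalamus homeobox gene, was at 23.4 CPM in deletion pulldown pool 8 against 18.3 to 18.8 in pools 5 to 7. Nhlh2 was at 7.99 CPM in control input pool 1 against 6.72 to 6.92 in the others. Lhx8 was at 1.77 CPM in deletion pulldown pool 6 against 0.367 to 0.514, and Foxp2 was lowest in that same library, at 37.1 against 43.8 to 44.4.

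Control pulldown pool 1 was lowest for Onecut3, at 22.2 CPM against 33.7 to 34.7, and for Lmx1b, at 0.367 against 0.470 to 0.483. Mab21l1 was at 0.805 CPM in control pulldown pool 3 against 0.110 to 0.160 in the other 3.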

How the results depend on the processing

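Of the genes passing in controls, 46.5% were higher as reported, 76.2% with library totals, 4.20% against pan-neuronal genes and 84.3% on log2(TPM + 1), where the all-gene median was 0.75. Against pan-neuronal genes 12 members were higher and 20 lower in controls and 15 and 23 in deletion pools. With library totals these were 37 and 6, and 34 and 6. Of the 17423 genes tested in deletion pools, library totals gave 10002 higher and 3436 lower. On either TPM scale the members were 40 and 5 in both genotypes. Of all genes in deletion pools, 12349 were higher and 2341 lower on log2(TPM + 1), and 12338 and 2369 on log2(TPM + 0.1). In controls, log2(TPM + 0.1) gave 12685 higher and 2388 lower of 17570. The values listed next changed sign in members that passed as reported or under the alternative; members that passed in neither are left out. With library totals they were, in controls, Nkx2-4 0.014, Six6 0.54, Fezf1 0.26, Foxp1 0.30, Barhl2 0.18, Prox1 0.025 and Nr2f2 0.49, and in deletion pools Prdm12 0.41, Fezf1 0.21, Foxp1 0.11, Barhl2 0.077 and Prox1 0.039. On log2(TPM + 1) they were, in controls, Nkx2-4 0.40, Six6 0.86, Fezf1 0.67, Foxp1 0.87, Barhl2 0.50, Prox1 0.44 and Nr2f2 0.85, and in deletion pools Nkx2-4 0.24, Prdm12 0.68, Fezf1 0.64, Foxp1 0.72, Barhl2 0.43, Prox1 0.44 and Meis2 0.88. On log2(TPM + 0.1) the same genes read 0.44, 0.96, 0.70, 0.92, 0.60, 0.46 and 0.89 in controls, and 0.26, 0.83, 0.66, 0.75, 0.52, 0.46 and 0.97 in deletion pools. Against pan-neuronal genes they were, in controls, Six3 -0.33, Tbx3 -0.19, Prdm12 -0.37, Nhlh2 -0.17, Sox14 -0.49, Lhx5 -0.041, Foxp2 -0.48, Zic2 -0.49, Onecut1 -0.011 and Onecut2 -0.47, and in deletion pools Six3 -0.36, Six6 -0.51, Tbx3 -0.19, Nhlh2 -0.24, Lhx5 -0.32, Foxp2 -0.51, Zic2 -0.53, Onecut2 -0.34 and Nr2f2 -0.49. The cause was not tested.

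Genes passing between genotypes in pulldown (108) became 1065 with DESeq2 (1 member higher, 2 lower), 508 with all libraries in one fit, 266 without a filter, 61 against pan-neuronal genes, 16 with TPM-rescaled counts, and 30 and 22 on log2(TPM + 1) and log2(TPM + 0.1). In input (41) they became 380 with DESeq2 (1 member each way), 261 without a filter (1 each way), 108 with library totals (1 member higher), 11 with TPM-rescaled counts, and 22 and 20 on the TPM scales. For the difference in enrichment (2) they became 21 with DESeq2, 6 without a filter or on log2(TPM + 1), 0 with TPM-rescaled counts, and 4 with RLE factors, library totals, pan-neuronal genes or the replicate block. With pools 1 and 5 left out, chosen after seeing the data, the counts were 3363 (1 member higher, 3 lower), 1957 (1 and 2) and 87. The block left 12178 and 11054 genes passing in controls and deletion pools and changed no member call beyond the 4 given in the report.

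Leaving out each library gave 10812 to 11613 genes, 23 to 25 members higher and 11 to 12 lower in controls, and 10095 to 10753, 21 to 24 and 9 to 12 in deletion pools. Between genotypes it gave 19 to 1262 genes in pulldown (1262 without deletion pool 5, 556 without control pool 1) and 19 to 402 in input (402 without control pool 1, 337 without deletion pool 5), each with 0 to 1 member lower, and 1 to 5 for the difference in enrichment. Barhl1 lost its deletion-pool call under DESeq2 (adjusted p = 0.0529), no filter (0.106), library totals (0.306), TPM-rescaled counts (0.0653) and both TPM scales (0.738 and 0.739). TPM-rescaled counts ended the calls of Foxp1 in both genotypes (-0.04 and -0.15), Onecut1 in controls (0.57, adjusted p = 0.0726) and Tbx3, Onecut2 and Sp8 in deletion pools (adjusted p = 0.0665, 0.0505 and 0.0884). A filter at a mean of 1 CPM ended the calls of Six3 (0.14, adjusted p = 0.0931) and Onecut2 in deletion pools and Onecut1 in controls (0.48, adjusted p = 0.0755). In deletion pools Sp9 passed with DESeq2, RLE factors, no filter, all libraries in one fit, mitochondrial genes removed, library totals, both TPM scales, the block, and without input pool 5 or pulldown pool 8 (adjusted p from 2.04e-05 to 0.0479), and Hmx3 with all libraries in one fit (0.0459). Members under 1 CPM rest on few counts, and differences there were the least resolved.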
